A study of Mus musculus with 4 samples.

Results

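The genes described here encode the machinery that makes ribosomes in the nucleolus: subunits of RNA polymerase I, snoRNP proteins that modify ribosomal RNA, and factors that cut, fold and assemble the pre-ribosomal particles. They were chosen by name from the platform annotation, as symbols that begin with Nop, Nol, Utp or Rrp and a digit, the symbols Polr1a to Polr1e, and 14 further named genes, among them Ncl, Npm1, Fbl, Bop1, Pes1 and Wdr12. The rule found 46 genes, out of 12393 with a symbol of their own on the array, and these had 79 of the 22690 probe sets. Dkc1, which the rule also names, was not matched and is not analysed here. Nol3 matched by its name alone, since its product is known as an inhibitor of apoptosis. Of the 46 genes, 44 passed the filter on dim genes, a mean over the 4 arrays that corresponds to a signal of 62.6. Polr1b and Nol3 did not.

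The data come from 4 Affymetrix Mouse Genome 430A 2.0 arrays, each a single sample. RNA was taken from mouse CH10T1/2 cells, a fibroblast line, in which the wild-type PTHR1 (WT line) or its R150C variant, found in enchondromas, had been stably introduced. PTHR1 is the receptor for parathyroid hormone and PTHrP. The 4 groups were WT control, WT with 1e-07 M PTHrP for 1 h, R150C with carrier and R150C with the same dose and time of PTHrP, all after a night in serum-free medium. The label of the WT control array does not name carrier, while the series text does. Each receptor is represented by 1 transfected line, so that receptor and line cannot be told apart, and the labels name no clone or passage. The array's mouse Pth1r probe set read 3.2 to 3.9 on all 4 arrays and does not follow the introduced receptor.

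Ribosome production starts when RNA polymerase I transcribes a long precursor RNA, which the small subunit processome, a large assembly around the U3 snoRNA, folds and cleaves into the small-subunit rRNA while other factors mature the large subunit. Box C/D snoRNPs methylate the rRNA and box H/ACA snoRNPs convert uridines to pseudouridine. In fibroblasts this programme is known to follow growth factor signalling and the transcription factor Myc, which binds the sequence CACGTG with its partner Max.

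All 10 fibroblast markers passed the filter, among them Col1a1 with signals from 4440.1 to 6197.4 and Vim from 7884.8 to 10659.2, while the epithelial marker Epcam (1.4 to 3.5), the endothelial marker Vwf (0.6 to 1.4) and the leukocyte marker Ptprc (8.2 to 16.3) stayed near the floor of the array. Of the markers of other cell types, 2 of 6 macrophage, 0 of 5 endothelial and 1 of 6 epithelial genes passed the filter. Over the 4 arrays the macrophage list summed to between 268.4 and 319.8, the endothelial list to between 95.1 and 143.8 and the epithelial list to between 138 and 216.5. The fibroblast markers summed to between 31944 and 41163, lowest in the R150C arrays, and 1 of them, Pdgfra, was called lower there (-0.55, limma adjusted p = 0.043), a call made under 2 of 4 scalings. Its part in the line differences was not tested, and in bulk RNA fewer cells of a type and less RNA per cell cannot be told apart. Correlations between arrays lay between 0.969 and 0.985 on the log2 scale. The Gapdh 3' to 5' signal ratio, a measure of RNA integrity, was 0.845 and 0.991 in the WT and R150C control arrays and 1.17 and 1.21 in the PTHrP arrays. For actin, control cells gave 1.42 (WT) and 2.13 (R150C), and PTHrP cells 2.39 (WT) and 2.31 (R150C). The Gapdh ratio moved with treatment and the actin ratio also with line in control medium, and their part in the differences below was not tested.

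Differences below are on the scale log2(signal + 16), with each array centred on the median of the 6197 genes that passed the filter. A difference over both media is the coefficient of limma's additive model of line and treatment, with its standard error (SE) and its p adjusted over all 6197 genes by the Benjamini-Hochberg method. Its only error term is the departure from additivity, on 1 residual degree of freedom. That departure had an SD of 0.35 over all kept genes, which corresponds to an SD of 0.25 for a difference between 1 pair of arrays. Differences between single arrays have no test. Whether the arrays of the lines overlap is a description of the same values and adds no support to a call. Signals of each gene are given in the order WT control, WT with PTHrP, R150C control, R150C with PTHrP.

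The 4 members that passed the test between the lines were all in the small subunit processome. This role holds 20 of the 44 kept members. Roles were assigned with earlier results of these data known, so this grouping is a description and no support for a pattern. Of all 6197 kept genes 5.52% were called higher and 4.18% lower in the R150C line. Wdr43, Mphosph10 and Utp4 were higher and Rrp36 was lower in the R150C line. Their promoters are shown because the results turn on these 4 genes. Rrp36 has 2 annotated windows, not both of which are shown. Each run below covers 100 bases before and 25 after the RefSeq start of the gene on GRCm38.p6, 5′ to 3′, and capitals mark CACGTG, the core bound by Myc and related factors, and CGGAAG or its reverse complement CTTCCG, the core bound by Ets factors.
Wdr43, chr17:71616115-71616239, plus strand: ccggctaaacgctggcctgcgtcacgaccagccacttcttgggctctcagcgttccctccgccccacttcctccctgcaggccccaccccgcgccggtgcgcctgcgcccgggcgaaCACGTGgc
Utp4, chr8:106893540-106893664, plus strand: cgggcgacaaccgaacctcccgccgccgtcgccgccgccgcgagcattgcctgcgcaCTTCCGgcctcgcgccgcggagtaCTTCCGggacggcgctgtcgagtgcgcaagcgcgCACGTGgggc
Mphosph10, chr7:64392212-64392336, minus strand: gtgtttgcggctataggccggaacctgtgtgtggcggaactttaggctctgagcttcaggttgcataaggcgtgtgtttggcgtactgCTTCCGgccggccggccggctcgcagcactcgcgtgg
Rrp36, chr17:46674302-46674426, minus strand: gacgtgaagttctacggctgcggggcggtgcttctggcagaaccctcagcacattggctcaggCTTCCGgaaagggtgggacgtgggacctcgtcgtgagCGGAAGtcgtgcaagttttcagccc
In Wdr43 and Utp4 a CACGTG began 17 and 15 bases after the annotated start, and in Mphosph10 and Rrp36 these letters were not found in this window. Over windows of 300 bases (250 before and 50 after the start), read on both strands, CACGTG was found in 10 of the 37 members that have a window in the table (27% of them), in 12.8% of 5116 kept genes with a window and in 7.15% of all 32851 windows. CGGAAG or its reverse complement was found in 22 of the 37 members (59.5%), in 40.5% of the kept genes and in 16.9% of all windows. The motifs do not overlap each other, and a match is a description of the letters.

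Wdr43 and Utp4 belong to the UTP-A module of the processome, which links its assembly to transcription by RNA polymerase I. The WT signals of Wdr43 were 334.9 and 283.2, and its R150C signals 541.6 and 488.7. Both R150C arrays were above both WT arrays. Without PTHrP the lines differed by 0.64, with PTHrP by 0.73, and over both media by 0.69 (SE 0.15, limma adjusted p = 0.015). A further probe set of Wdr43 read 209.2, 225.4, 403.8 and 380.7, with a difference of 0.78 over both media and thus the same direction.

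Utp4, with 1 probe set, had WT signals of 264.1 and 294.2 and R150C signals of 473.0 and 419.7. The ranges of the lines did not overlap. The gap was 0.77 without and 0.47 with PTHrP, and 0.62 over both (SE 0.15, limma adjusted p = 0.029). Mphosph10, a processome protein that binds Imp3 and Imp4, read 151.4 and 137.9 against 273.1 and 206.8, again without overlap. Its differences were 0.76 and 0.51, and 0.63 over both media (SE 0.15, limma adjusted p = 0.024). The other probe set of Mphosph10 was dim, at 39, 20.8, 31.7 and 27.5, and differed by -0.01. With the average of both probe sets Mphosph10 stood at 0.35 and was not called (limma adjusted p = 0.183).

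Rrp36, a factor of early cleavage of the small-subunit precursor, went the other way. WT signals were 168.7 and 204.2, and the R150C signals, 95.6 and 110.2, were both below them. R150C minus WT was -0.76 without PTHrP, -0.82 with it and -0.79 over both (SE 0.15, limma adjusted p = 0.007). The array has 1 probe set for it. With every probe set tested singly, Mphosph10 (0.0642) and Utp4 (0.0734) missed limma's threshold of 0.05 for the adjusted p, while Wdr43 and Rrp36 passed. With plain probe sets only, Utp4 was just outside the threshold (0.64, limma adjusted p = 0.053). Over 4 scalings of the arrays the largest adjusted p was 0.021 for Wdr43, 0.039 for Utp4, 0.031 for Mphosph10 and 0.015 for Rrp36, all by limma. Without the filter on dim genes, with 12393 genes tested, limma's adjusted p of these 4 genes lay between 0.163 and 0.237 and none was called, with 30 genes higher and 3 lower in all.

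**Figure D1:**
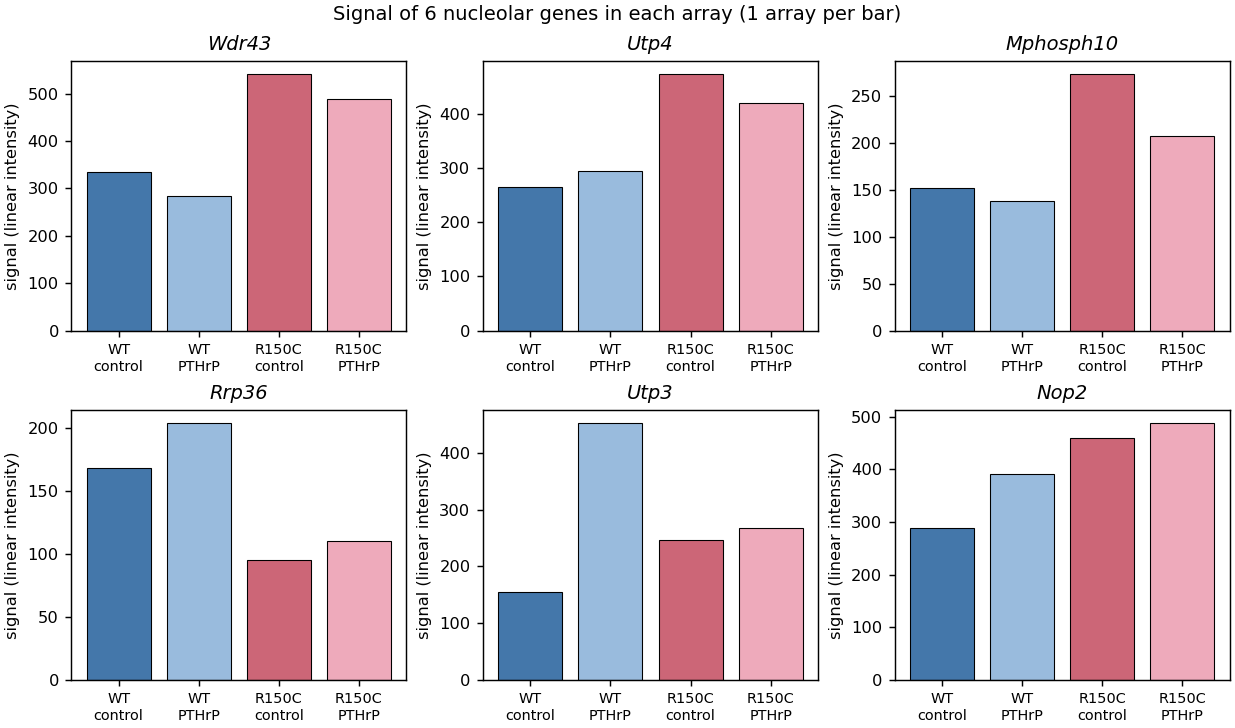
Linear signal (y axis) of 6 members in each of the 4 arrays, 1 bar per array with no error bar since each group has 1 array. In Wdr43, Utp4 and Mphosph10 both R150C bars stand above both WT bars, in Rrp36 both stand below, and Utp3 is highest in the WT array with PTHrP, at 453.2.

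These calls are set beside those over all kept genes. Of the 44 members that passed the filter, 3 were called higher in the R150C line (6.82%) where 5.52% of all 6197 kept genes were, and 1 was called lower (2.27%) against 4.18%. With the call required under each of 4 scalings the members' counts were 3 and 1, and the shares of all genes 5.2% and 2.94%. The members' share is thus near that of the background in each direction. No member was 2-fold apart between the lines in either medium, where 2.03% of all kept genes were higher and 0.968% lower without PTHrP, and 2.16% and 0.726% with it. The median member difference was 0.07 over both media, against -0.06 over all kept genes, and 29 of the 44 members (65.9%) had a difference above 0, against 41.2% of all kept genes. The gap between the medians of members and of all genes ran from 0.10 to 0.16 over the alternative settings. These shares describe the list and carry no test. At an unadjusted limma p under 0.05, with the 4 calls included, 8 of 44 members were higher and 3 lower, where 11.3% and 14.2% of all kept genes were.

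In single media, the R150C line without PTHrP had 7 members higher by 1.5-fold or more (15.9% of members, against 5.99% of all kept genes) and 2 at least 1.5-fold lower (4.55% against 5.62%). Under PTHrP 1 member was higher by that fold (2.27% against 6.05%) and 2 were lower (4.55% against 5.26%). The members' share of higher genes was above that of all genes without PTHrP and below it with PTHrP. The 7 were Rrp12, Utp4, Mphosph10, Utp25, Wdr43, Nop2 and Utp3, all but Nop2 in the small subunit processome. As roles were assigned with earlier results known, this grouping too is only a description.

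**Figure D2:**
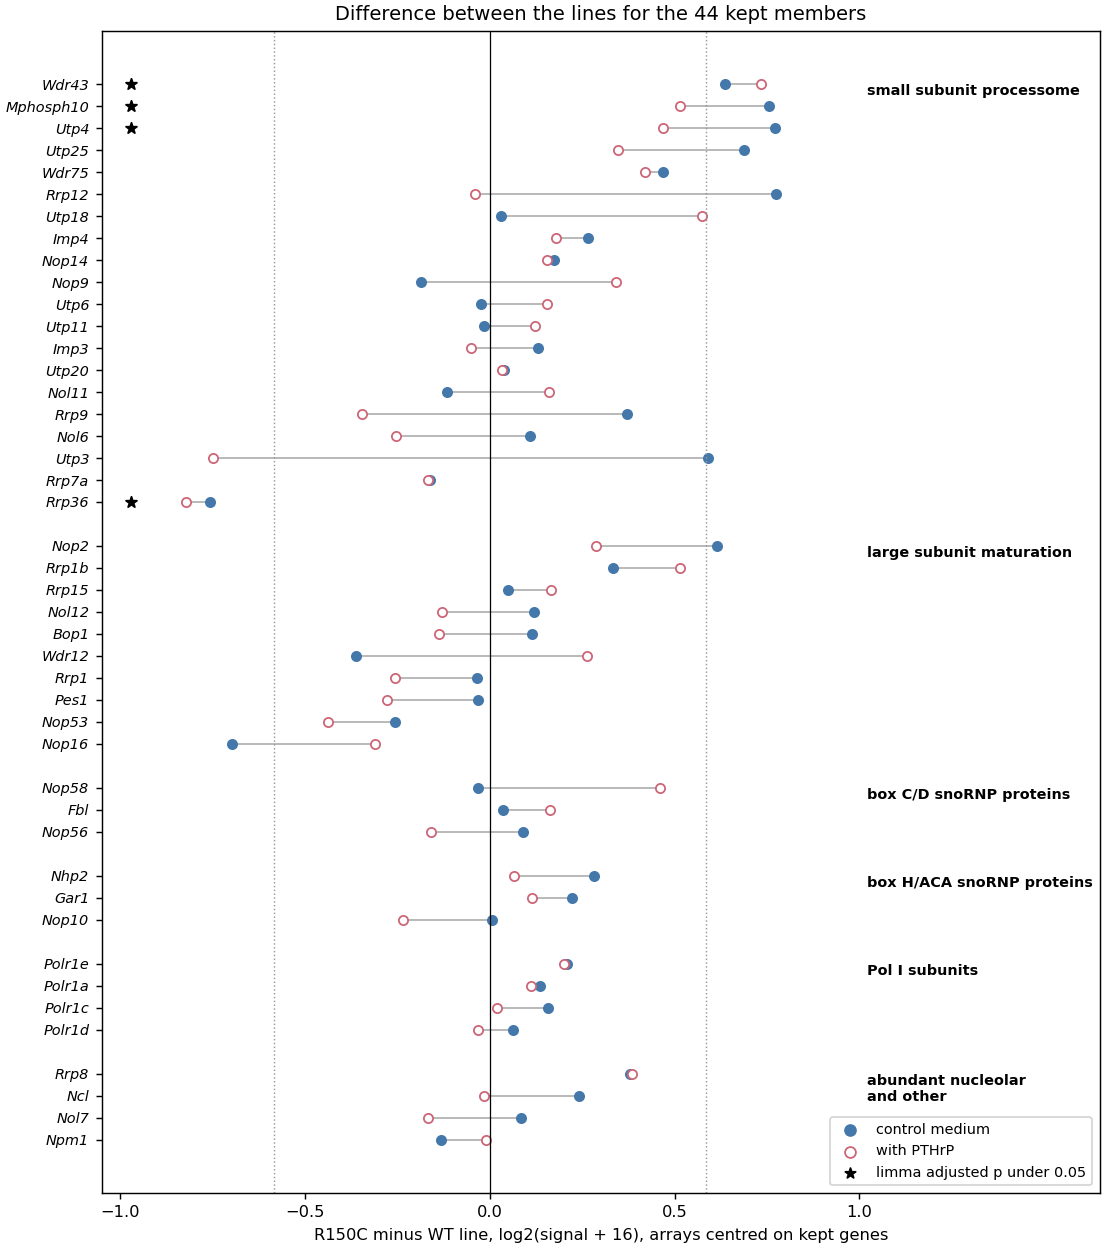
Difference between the R150C and WT lines (x axis, log2(signal + 16), arrays centred on kept genes) for the 44 members that passed the filter, grouped by role. Filled points are control medium, open points PTHrP, dotted lines mark 1.5-fold and stars mark a limma adjusted p under 0.05. The 4 stars stand in the small subunit processome, which holds 20 of the 44 members, with roles assigned when earlier results were known. Means of the starred genes over both media run from 0.69 in Wdr43 to -0.79 in Rrp36. Those of the Pol I subunits shown lie between 0.01 and 0.20.

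Of the 20 processome members that passed the filter, 16 had a difference above 0 over both media, with a median of 0.07, and 16 did not pass the test. Wdr75, a further UTP-A protein, read 136.0 and 170.7 against 199.2 and 237.4 and differed by 0.44 (SE 0.15, limma adjusted p = 0.087). Nol11, of the same module, differed by 0.02 (-0.12 with averaged probe sets), and Heatr1, which the name rule does not cover, by 0.37. This module was singled out after its values were seen. Its readings were unequal, from 0.02 to 0.69 in the brightest probe sets. The other kept probe sets of Nol11 stood at -0.06 and -0.45.

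Utp25, a processome protein related to RNA helicases, read 92.0, 111.0, 161.7 and 147.8 and differed by 0.52 (SE 0.16), with a limma adjusted p of 0.064. It was called under 2 of the 4 scalings. Imp3 (0.04) and Imp4 (0.22), the partners of Mphosph10, did not pass, nor did the UTP-B proteins Utp6 (0.07, and 0.295 with averaged probe sets) and Utp18 (0.30) or the U3 protein Rrp9 (0.01). Rrp7a, of the UTP-C module, stood at -0.17 and Utp20 at 0.03. The remaining processome members, Nop9, Nop14, Nol6, Utp3, Utp11 and Rrp12, differed by between -0.08 and 0.37.

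Among the 10 factors of large subunit maturation none passed the test, with 2 higher and 2 lower at an unadjusted limma p under 0.05 (11.3% and 14.2% of all kept genes). Their median was -0.03 and 3 of 10 had a difference above 0. Nop2, a methyltransferase of the large-subunit rRNA, stood highest. Its WT signals were 287.7 and 391.1 and its R150C signals 459.4 and 488.3, so that the lines did not overlap, and it differed by 0.45 (SE 0.16, limma adjusted p = 0.099). The gap was 0.61 without PTHrP and 0.29 with it. It was called with the filter at the 75th percentile (limma adjusted p = 0.041). Outside the name rule 9 other ribosome biogenesis factors were called higher, as given below, among them the large subunit factor Mdn1 (0.91). Those 9 were not sorted by subunit, so the absence of calls in this role holds only for genes under the name rule.

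Nop16, an assembly factor of the large subunit, stood lowest of this role. Its WT signals of 167.0 and 171.7 were both above the R150C signals of 99.3 and 137.6, with a difference of -0.50 (SE 0.16, limma adjusted p = 0.074). Its other probe set, at 10.1, 2.8, 16.2 and 14, is dim, and with their average the difference was 0.0191. Nop53 stood at -0.35, with -0.32 in its second probe set, and Rrp1b, a nucleolar partner of protein phosphatase, at 0.42, with 0.20 and 0.09 in its others. Pes1, Bop1 and Wdr12 form one complex needed for maturation of the large-subunit rRNA, and their differences were -0.16, -0.01 and -0.05, all near 0. With centring on all probe sets Bop1 turned to 0.0449 and Wdr12 to 0.00761, with averaged probe sets Wdr12 was at 0.0702, and the other probe set of Pes1 stood at 0.06. Rrp1, Rrp15 and Nol12 lay between -0.15 and 0.11, and Nol12 (-0.01) turned to 0.0518 with that centring.

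The snoRNP proteins differed little between the lines, and none of the 3 box C/D and 3 box H/ACA members passed, also at an unadjusted limma p under 0.05. Fibrillarin (Fbl), the methyltransferase of box C/D particles, differed by 0.10. Nop58, its scaffold partner, read 409.9, 279.2, 409.8 and 396.2, so that the WT array with PTHrP stood below the other 3, and differed by 0.21. Nop56, the other scaffold, read 529.3, 474.2, 577.5 and 429.1 and differed by -0.03, with R150C arrays at both ends of the range. Among the H/ACA proteins Nhp2 was the highest, at 739.4, 943.7, 922.9 and 1001.8 (0.17, with 0.364 by plain and 0.300 by averaged probe sets), and Nop10 the lowest, at 1240.6, 1573.4, 1273 and 1354.6 (-0.11). Gar1 stood at 0.17. In the brightest probe sets of Nop58, Nop56 and the H/ACA proteins the lines overlapped. In Fbl they did not, at 539.5 and 547 against 566.4 and 623.4. The other probe sets of Nhp2 (0.35) and Nop10 (0.10) also showed no overlap. Nop56 turned to 0.02 with centring on all probe sets and to 0.10 with the mean of its probe sets, and Nop10 to 0.0308 with that mean and 0.11 with plain probe sets.

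In their brightest probe sets the 4 RNA polymerase I subunits that passed the filter were close to each other. Polr1e stood highest, at 93.5, 88.2, 113.3 and 105.5, a difference of 0.20 with no overlap of the lines. Polr1d, which the enzyme shares with RNA polymerase III, stood lowest, at 660.3, 697.9, 705.7 and 692.1, a difference of 0.01 with overlap. Polr1a, the largest subunit, differed by 0.12 and Polr1c by 0.09. None of these 4 subunits passed, also at an unadjusted limma p under 0.05. Other probe sets stood at -0.03 in Polr1c, 0.01 in Polr1d and 0.10 in Polr1e. Those of Polr1a, below the filter, stood at -0.42 and -0.12. Polr1b, the second largest subunit, lay below the filter, with WT signals of 44.1 and 41.6 and R150C signals of 71.0 and 67.8. Both R150C arrays were above both WT arrays, by 0.50 without and 0.52 with PTHrP, and it was not tested with this filter. With averaged probe sets, where it passed the filter, limma called it higher.

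The abundant nucleolar proteins Npm1 and Ncl, and the factors Rrp8 and Nol7 grouped with them, showed no difference that passed. Rrp8 was counted in this group and not among the 10 factors of large subunit maturation. Nucleophosmin (Npm1), a chaperone of ribosome export, read 3266.7, 2638.0, 3044.3 and 2658.2 and differed by -0.07 (SE 0.15), a value that turned to 0.00914 after quantile normalization and to 0.0467 with the mean of its probe sets. Nucleolin (Ncl), which binds nascent pre-rRNA, read 2255.9, 2424.2, 2728.4 and 2433.2 and differed by 0.11. The 4 probe sets of Ncl did not give 1 answer, at differences from -0.07 to 0.46. Rrp8, a methyltransferase of the large-subunit rRNA, stood at 0.38 (SE 0.15, limma adjusted p = 0.135) with 130.9 and 137.5 against 179.4 and 187.3, and Nol7 at -0.04, which turned to 0.0169 with centring on all probe sets.

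Where a gene had at least 2 probe sets above the filter, their readings show how far a single one can be trusted. For 17 members the brightest and the second brightest could be compared, and they differed by a median of 0.16 in the line difference. In 15 of the 17 the gap was under 0.25, while the sign was shared in 9. That 0.25 is the SD of a single difference and is wider than that of a mean over both media. These gaps compare probe sets on the same arrays and do not measure how far a member lies from 0. Another 21 of the 46 members have 1 probe set, Utp4, Rrp36, Utp3 and Nop2 among them.

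Factors of the same pathway that the name rule does not cover were taken from a list of their own, and 70 of 73 on the array passed the filter. The list was chosen with earlier results of these data known, so its counts are a description and no independent support. In the R150C line 9 of the 70 were called higher and 0 lower, where 5.52% and 4.18% of all kept genes were, and at an unadjusted limma p under 0.05 the counts were 22 and 3, against 11.3% and 14.2% of all kept genes. Their median difference over both media was 0.22, against -0.06 over all kept genes, and 52 of 70 were above 0. The highest were Mdn1, an ATPase that remodels the large subunit precursor, with WT signals of 101.7 and 83.8 against 221.3 and 164.5 (0.91, SE 0.15, limma adjusted p = 0.003), Nip7 (0.85) and Rrs1 (0.75). The lowest were Nsa2 (-0.39), Tsr3 (-0.36) and Ddx49 (-0.36), which did not pass. The count of 9 became 14 with centring on all probe sets, 5 with every probe set taken singly and 0 without the filter.

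Of 12 polymerase I factors outside the rule none passed, also at an unadjusted limma p under 0.05, and their median was 0.02. Taf1b (0.187), Rrn3 (0.187) and Tcof1 (0.145) stood highest, and Taf1d (-0.26), Baz2a (-0.10) and Polr2f (-0.08) lowest. Of 11 genes of the nuclear RNA exosome, which trims the rRNA ends, none passed, with 2 higher and 3 lower at an unadjusted limma p under 0.05 (11.3% and 14.2% of all kept genes). Their extremes were Dis3 (0.43), Mphosph6 (0.35) and Mtrex (0.145) against Exosc4 (-0.49), Exosc5 (-0.385) and Exosc9 (-0.36). The median was -0.20 over 45 cytosolic ribosomal proteins and -0.12 over 35 proteasome subunits, both also large assemblies made by all cells. Those medians, like that of all kept genes (-0.06), lay on the other side of 0 from that of the nucleolar members, a comparison that was not tested. In control medium the ribosomal protein and proteasome medians were -0.07 and -0.01, against -0.04 over all kept genes. With PTHrP they were -0.29 and -0.22, against -0.07. Myc itself had WT signals of 90.7 and 58.8 against 529.9 and 473, a difference of 2.51 (SE 0.16, limma adjusted p = 6e-06), and how it bears on the members was not tested.

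**Figure D3:**
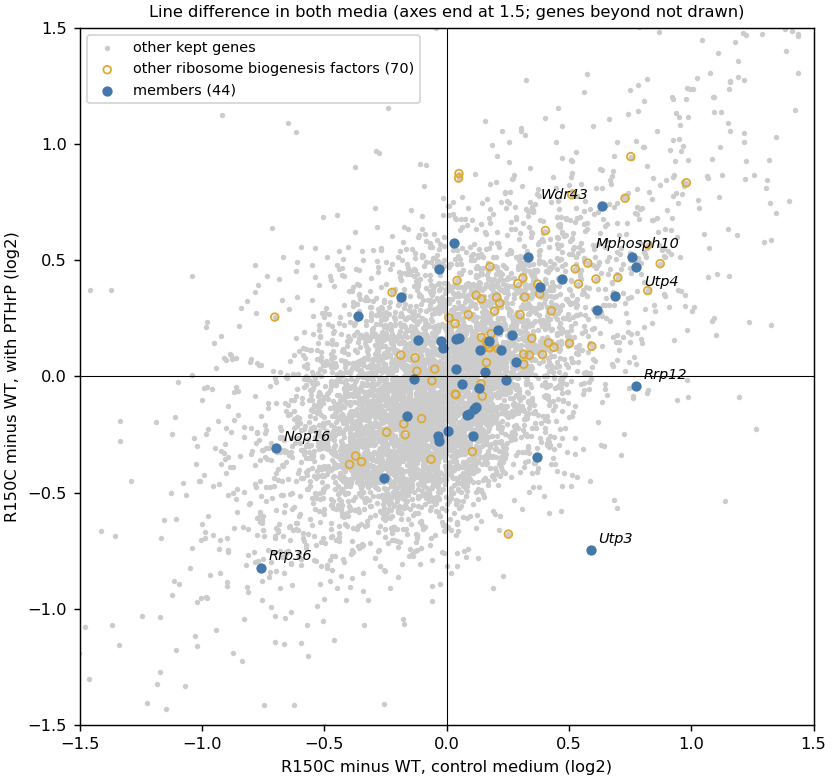
Difference between the lines in control medium (x axis) against that under PTHrP (y axis), log2, for all kept genes in grey, the 70 other ribosome biogenesis factors as open circles and the 44 members in blue, with the axes ending at 1.5. Wdr43, Mphosph10 and Utp4 lie high in both media and Rrp36 low in both, while Utp3 (0.59 and -0.75) and Rrp12 (0.77 and -0.04) do not keep their place.

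**Figure D4:**
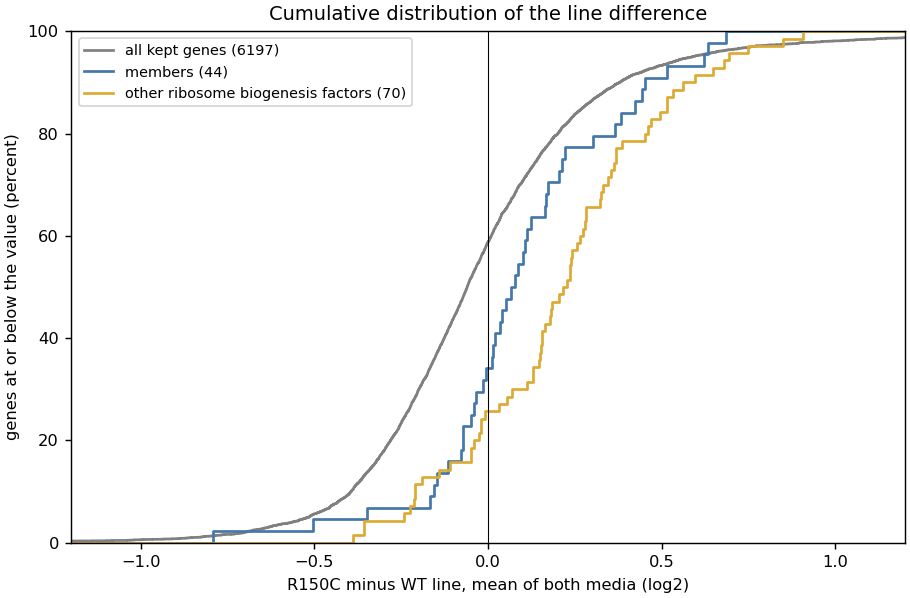
Share of genes (y axis, percent) at or below each line difference (x axis, mean of both media, log2), for all 6197 kept genes, the 44 members and the 70 other ribosome biogenesis factors. The medians are -0.06, 0.07 and 0.22 in that order.

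The comparison with PTHrP asked what 1 h of ligand does to these genes in each line. Over both lines limma called no member and no other gene changed by PTHrP (0% of 6197 in each direction), with 1 member and 345 genes at an unadjusted p under 0.05. With centring on all probe sets 22 genes were called higher and 3 lower, and with no centring 1. In the WT line the median member difference was 0.08, against 0.03 over all kept genes, and 2 members were at least 1.5-fold higher (4.55% against 1.39%) and 0 as much lower (against 2.34%). In the R150C line the medians were -0.01 and -0.01, and 0 members passed 1.5-fold either way (against 1.19% higher and 0.645% lower). Both comparisons between the lines above and these responses use the same 4 arrays.

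Utp3, a processome protein also called Sas10, stood apart in the WT line. The WT signal was 154.1 without and 453.2 with PTHrP, a response of 1.44, where 0.0968% of all kept genes were 2-fold higher and 0.29% 2-fold lower. R150C signals were 246.0 and 267.1, a response of 0.10, where 0.129% and 0.0161% were. The WT array with PTHrP alone is high, and the R150C arrays lie between the WT arrays. The gene has 1 probe set, and the value rests on 1 array. Over both lines its PTHrP difference was 0.77 (SE 0.25), with a limma adjusted p of 0.773, while with centring on all probe sets it was 0.90 (SE 0.19) and limma's adjusted p 0.003. Under that centring limma's variance prior was infinite, so that every gene had the same SE.

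Rrp12, known for export of pre-ribosomal subunits, was next, at 48.3 and 89.4 in WT cells (0.69) and 96.4 and 87.9 in R150C cells (-0.12). Here the WT control array alone was low, below the filter level of 62.6. Nop2 followed with responses of 0.40 (WT) and 0.08 (R150C). At the low end of the WT responses stood Nop58 (-0.55, against -0.06 in the R150C line), Utp6 (-0.38 and -0.20) and Nol11 (-0.33 and -0.06). Utp6 read 173.7, 132.1, 174.8 and 151.1. Nol11 read 212.3, 167.6, 199.4 and 191.9. In both the WT array with PTHrP was the lowest. The other probe sets of Utp6 gave -0.35 and -0.57 in the WT line, and those of Nol11 0.06 and -0.83.

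In the R150C line Nop16 (0.41), Nop9 (0.33), an RNA-binding protein of the small-subunit precursor, and Wdr12 (0.32) stood highest. Their values in the WT line were 0.02, -0.19 and -0.31. Nop9 read 283.6, 249.5, 253.1 and 325.2. Wdr12 read 146.3, 116.9, 113 and 145.7, so that the lines went opposite ways in both. Lowest were Nop56 (-0.42), Rrp9 (-0.40) and Mphosph10 (-0.38), with -0.17, 0.32 and -0.14 in the WT line. Rrp9, a U3 snoRNP protein, read 137.7, 178.4, 187.1 and 139.2, with the WT array under PTHrP and the R150C control array high. Of the 44 members 37 lay within 0.25 of 0 in the R150C line and 25 in the WT line. The share of all kept genes within that range was not counted, so these counts are no result about the members. Over all kept genes the SD of the response was also larger in the WT line, 0.27 against 0.23 in the R150C line. Over the members the SDs were 0.33 and 0.19. The difference between the responses had an SD of 0.35 over the members and 0.35 over all kept genes.

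**Figure D5:**
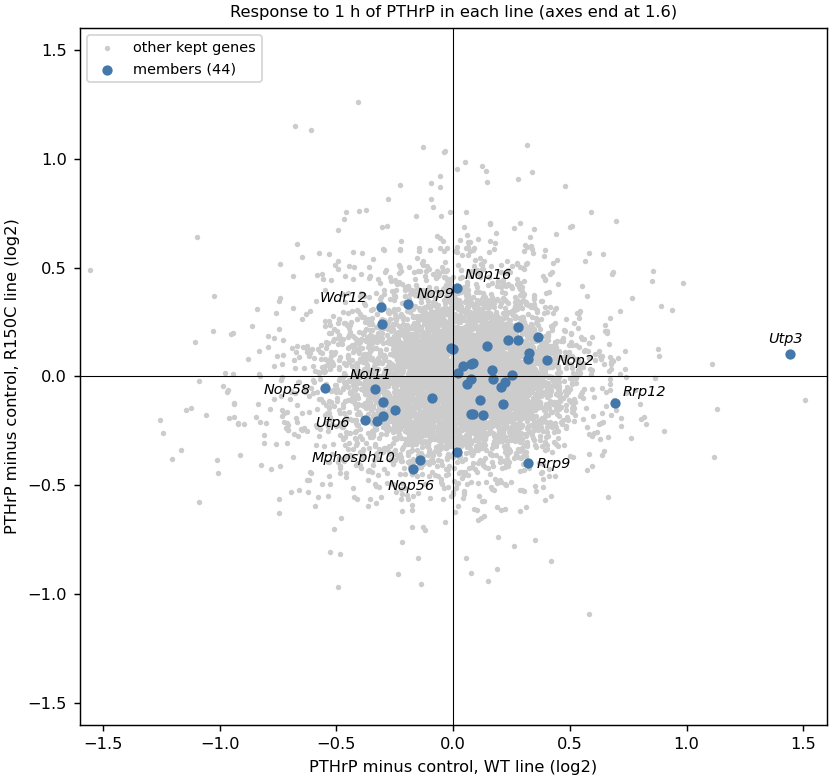
PTHrP minus control in the WT line (x axis) against the same in the R150C line (y axis), log2, for all kept genes in grey and the 44 members in blue. Most members lie in the cloud of all genes, and Utp3 lies apart at 1.44 and 0.10.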

How the data were processed

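Signals came from the series' deposited value table, 1 column per array. Per the submitters' processing notes the authors used Affymetrix Expression Console for these linear intensity values. Its algorithm and version: not given in the sources used here. The mean after trimming 2% at each end is 150.1 in every deposited array, which shows a global scaling. The 64 control probe sets were left out. Of the others 20380 had 1 symbol, 691 several and 1555 none or were not listed, and no probe set with several symbols met the rule. All 46 Entrez identifiers matched the mouse gene table. The brightest probe set stood for a gene.

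Computed here were log2(signal + 16), the filter at the median over genes, centring on the kept genes and limma 3.58.1 (R 4.3.3) with line and treatment. Calls use an adjusted p under 0.05, and 1.5-fold marks single contrasts. Because limma's p-values rest on 1 residual degree of freedom and on sharing of variances between genes, they measure only the spread between these arrays, and no array can be left out of the fit. Precision is limited by the number of arrays. Members, roles and lists were chosen with earlier results of these data known. Named are the members called under each of 4 scalings, the highest and lowest of each role, the 3 highest and 3 lowest in each PTHrP response, and, by difference, the 3 highest and lowest of each list outside the rule. Others, named without that rule, were chosen after their values were seen. Promoter sequences are those of RefSeq on GRCm38.p6. Alternatives covered scaling, pseudocount (1 and 64), the filter, the choice of probe sets and a variance trend.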

Additional observations from a re-analysis of the deposited data

Results flagged for a closer look

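Rrp12 and Rrp9 had PTHrP responses of opposite sign in the lines, apart by more than 2 SDs of the departure from additivity (0.70). The R150C response minus the WT response was -0.82 in Rrp12 (WT 0.69, R150C -0.12) and -0.72 in Rrp9 (0.32 and -0.40). With 1 array per group this difference was not tested. Departures of that size were present in 3 of 44 members (6.82%) and 4.68% of all kept genes, and the third member was Utp3, whose responses share a sign.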

How the results depend on the processing

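The members called higher in the R150C line (3) became 0 without the filter. Wdr43 was called under each of the other 10 alternatives, Utp4 in all of these but plain probe sets and every probe set, and Mphosph10 in all but every probe set, averaged probe sets and the stricter filter. Those called in addition were Utp25 (no centring, centring on all probe sets), Nop2 (75th percentile) and Polr1b (averaged probe sets). The count called lower (1, Rrp36) became 0 without the filter and also when only the genes above the 75th percentile were kept. Mphosph10 and Rrp36 did not pass that stricter filter and were not tested under it. Members called higher with PTHrP (0) became 1 with centring on all probe sets, which also moved the median of all kept genes in the WT response from 0.03 to 0.22. Members at least 1.5-fold apart between the lines in control medium (9) became 2 with a pseudocount of 64, 4 above the 75th percentile and 0 at 2-fold, and under PTHrP (3) became 5 with a pseudocount of 1 and with every probe set, and 0 at 2-fold. For the WT response (2) they became 1 with a pseudocount of 64, the stricter filter, plain probe sets or 2-fold, and 6 with every probe set, and for the R150C response (0) 1 with averaged probe sets. The line difference turned sign in Nol11 (-0.12), Nop10 (0.0308), Nop16 (0.0191), Nop56 (0.10), Npm1 (0.0467) and Wdr12 (0.0702) with averaged probe sets, in Nop10 with plain probe sets (0.11), in Npm1 after quantile normalization (0.00914), and in Nop56 (0.0232) and Wdr12 (0.00761) with centring on all probe sets. The cause was not tested, except that fewer genes pass a stricter filter and more are tested without one. The members' median line difference with PTHrP went from 0.09 to -0.01 above the 75th percentile, and their median WT response from 0.08 to 0.26 with centring on all probe sets. Blocking by a replicate number could not be done, since each group has 1 array; the additive model itself compares the lines within each medium. The counts of other ribosome biogenesis factors by setting were added after seeing the data.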
